A study of Mus musculus with 2 samples.

Results

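TRAV3 and TRAV4 are a pair of V gene subgroups of the T cell receptor alpha chain, and their chains were taken from the deposited contig tables as every TRA contig whose V call was TRAV3 or TRAV4, with the D, N and DV copies. A contig is an assembled receptor transcript of a single cell barcode. The rule found 439 of 3782 TRA chains, 215 of 1862 in the WT library and 224 of 1920 in the Btla KO library. Of these, 146 were TRAV3 chains and 293 were TRAV4 chains. They lay in 213 WT cells and 222 Btla KO cells, out of 1704 and 1798 cells with any TRA chain.

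The study sequenced the receptors of CD4 single-positive thymocytes from C57BL/6J mice (WT) and from C57BL/6-Btla KO mice, which lack Btla (Btla KO), both aged 8 to 12 weeks, with a single droplet V(D)J library for each genotype. Cells were enriched by negative selection with a kit for mouse naive CD4 T cells, and the number of mice behind each library was not given in the sources used here. The libraries hold receptor transcripts only, so neither the deletion of Btla nor the cell type could be checked in them. With 1 library per genotype no test between genotypes was possible, and the range that follows a share is the exact 95% interval of Clopper and Pearson, where counting is the only source of error.

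BTLA is an inhibitory receptor of lymphocytes. An alpha chain gene is assembled in the thymus by joining a TRAV segment to a TRAJ segment, which removes the DNA between them, and the same chromosome can rearrange again with a TRAV segment farther from the constant gene and a TRAJ segment nearer to it. The TRAV segment encodes the CDR1 and CDR2 loops, and its join with TRAJ, trimmed and extended by added bases, encodes CDR3, the loop that mainly touches the peptide. In C57BL/6 mice the middle of the TRAV array has been copied, and the copies carry D and N in their names.

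The GRCm38 annotation held 17 genes of the subgroups on the plus strand of chromosome 14, 12 V genes and 5 pseudogenes. The libraries contained 9 of the V genes and 0 chains of the pseudogenes. The 3 V genes without a call were TRAV3D-3, TRAV4D-3 and TRAV4D-4. Their sequence from framework 1 to framework 3 was identical, base for base, to TRAV3N-3, TRAV4N-3 and TRAV4N-4, so 249 of the 439 chains carried an N name that could equally stand for the D copy. Copies within a pair were told apart by few bases. The sequences below show the 3 pairs of copies that carried most chains, since the difference between their names is where the subgroups divided, and capitals mark the bases at which the members of a pair differ.
TRAV3N-3 (chr14:53283896-53284162): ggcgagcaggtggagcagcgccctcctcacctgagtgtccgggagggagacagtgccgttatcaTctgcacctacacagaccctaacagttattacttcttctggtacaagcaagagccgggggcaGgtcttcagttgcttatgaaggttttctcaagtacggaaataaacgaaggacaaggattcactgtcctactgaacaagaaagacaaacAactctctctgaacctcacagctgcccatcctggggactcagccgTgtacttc
TRAV3-3 (chr14:53666227-53666493): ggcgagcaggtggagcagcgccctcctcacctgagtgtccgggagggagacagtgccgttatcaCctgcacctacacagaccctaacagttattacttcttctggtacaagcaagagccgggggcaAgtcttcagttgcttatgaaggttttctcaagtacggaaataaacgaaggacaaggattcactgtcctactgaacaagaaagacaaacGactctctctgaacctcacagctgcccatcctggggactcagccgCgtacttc
TRAV4N-4 (chr14:53302289-53302546): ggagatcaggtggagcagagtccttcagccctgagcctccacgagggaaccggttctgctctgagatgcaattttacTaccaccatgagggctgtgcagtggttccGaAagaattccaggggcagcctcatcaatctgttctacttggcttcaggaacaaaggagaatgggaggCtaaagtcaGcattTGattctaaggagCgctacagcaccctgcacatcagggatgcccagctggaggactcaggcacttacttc
TRAV4-4-DV10 (chr14:53683907-53684164): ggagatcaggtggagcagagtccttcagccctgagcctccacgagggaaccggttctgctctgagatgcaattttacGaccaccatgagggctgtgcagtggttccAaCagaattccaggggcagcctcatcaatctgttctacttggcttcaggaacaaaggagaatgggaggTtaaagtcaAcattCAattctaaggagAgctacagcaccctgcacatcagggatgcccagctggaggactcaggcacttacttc
TRAV4N-3 (chr14:53211137-53211394): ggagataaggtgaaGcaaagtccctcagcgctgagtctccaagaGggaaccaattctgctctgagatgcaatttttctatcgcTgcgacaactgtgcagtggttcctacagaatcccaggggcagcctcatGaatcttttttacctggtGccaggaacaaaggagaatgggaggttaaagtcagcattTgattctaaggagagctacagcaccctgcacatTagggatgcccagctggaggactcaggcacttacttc
TRAV4-3 (chr14:53599140-53599397): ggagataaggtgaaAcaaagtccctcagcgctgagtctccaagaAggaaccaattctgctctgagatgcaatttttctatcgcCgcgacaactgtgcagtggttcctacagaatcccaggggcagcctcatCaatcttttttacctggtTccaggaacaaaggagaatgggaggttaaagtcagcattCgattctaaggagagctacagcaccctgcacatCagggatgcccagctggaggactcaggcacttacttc

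TRAV3N-3 and TRAV3-3 differed at 4 of 267 bases. TRAV4N-4 and TRAV4-4-DV10 differed at 8 of 258 bases, and TRAV4N-3 and TRAV4-3 at 7. In each of these pairs the CDR1 and CDR2 loops had the same amino acids, so the copies of a pair present the same germline loops. The rare TRAV3-1 and TRAV3-4 differed from each other at 6 bases and from TRAV3N-3 at 26 each. TRAV4-2 was the most distant TRAV4 gene, with 39 to 51 bases differing from the others. The assembled contigs matched these germline sequences in full in 123 of 124 TRAV3N-3 chains, 16 of 18 TRAV3-3 chains, 80 of 80 TRAV4N-4 chains, 100 of 101 TRAV4-4-DV10 chains, 44 of 45 TRAV4N-3 chains and 50 of 50 TRAV4-3 chains.

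TRAV3 gave 77 of 1862 WT chains (4.14%, 3.28 to 5.14%) and 69 of 1920 Btla KO chains (3.59%, 2.81 to 4.53%). TRAV4 gave 138 chains in WT (7.41%, 6.26 to 8.70%) and 155 in Btla KO (8.07%, 6.89 to 9.38%). By number of chains TRAV4 was the 6th subgroup in both libraries, and TRAV3 was the 9th of 20 in WT and the 8th of 19 in Btla KO. For each subgroup the intervals of the libraries overlapped. Among contigs with at least 3 UMIs (molecular identifiers, a count of captured transcripts), however, TRAV4 was 6.48% of WT chains and 9.84% of Btla KO chains, a difference of 3.35 percentage points against 0.66 points over all chains.

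Within TRAV3, most chains came from TRAV3N-3, with 62 WT chains and 62 Btla KO chains, or 80.5% (69.9 to 88.7%) and 89.9% (80.2 to 95.8%) of the subgroup. TRAV3-3 gave 14 WT chains (18.2%, 10.3 to 28.6%) and 4 Btla KO chains (5.80%, 1.60 to 14.2%). TRAV3-1 was found only in the Btla KO library, with 3 chains, and 0 of 1862 WT chains allow a share of up to 0.161%. TRAV3-4 was found only in the WT library, with 1 chain, and 0 of 1920 Btla KO chains allow a share of up to 0.156%. The TRAV3 chains of both libraries were therefore mainly those of a single V sequence.

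TRAV4 was spread over 5 genes. TRAV4-4-DV10, which can also join the delta locus, gave 54 WT chains (39.1% of TRAV4, 30.9 to 47.8%) and 47 Btla KO chains (30.3%, 23.2 to 38.2%). TRAV4N-4 gave 26 WT chains (18.8%, 12.7 to 26.4%) and 54 Btla KO chains (34.8%, 27.4 to 42.9%), and here the intervals of the libraries did not overlap. Lack of overlap was not counted over the other TRAV genes, so it does not set TRAV4N-4 apart from them. TRAV4-3 gave 28 and 22 chains, TRAV4N-3 gave 21 and 24, and TRAV4-2 gave 9 and 8. TRAV4-4-DV10 was the most used TRAV4 gene of the WT library and TRAV4N-4 that of the Btla KO library.

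A gene was called different where its share of TRA chains was at least 1.5 times higher in a library than in the other, with at least 10 chains in each. Of the 9 genes, 5 had enough chains, and of these 1 was higher in the Btla KO library (TRAV4N-4, 1.40% against 2.81% of TRA chains, a ratio of 2.01) and 0 were lower. Over all 61 TRAV genes with enough chains, 14.8% were higher in the Btla KO library and 9.84% were lower by the same rule. The count of members called was thus near the share for all TRAV genes. TRAV3-3, with 14 and 4 chains, did not have enough chains for the rule.

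**Figure D1:**
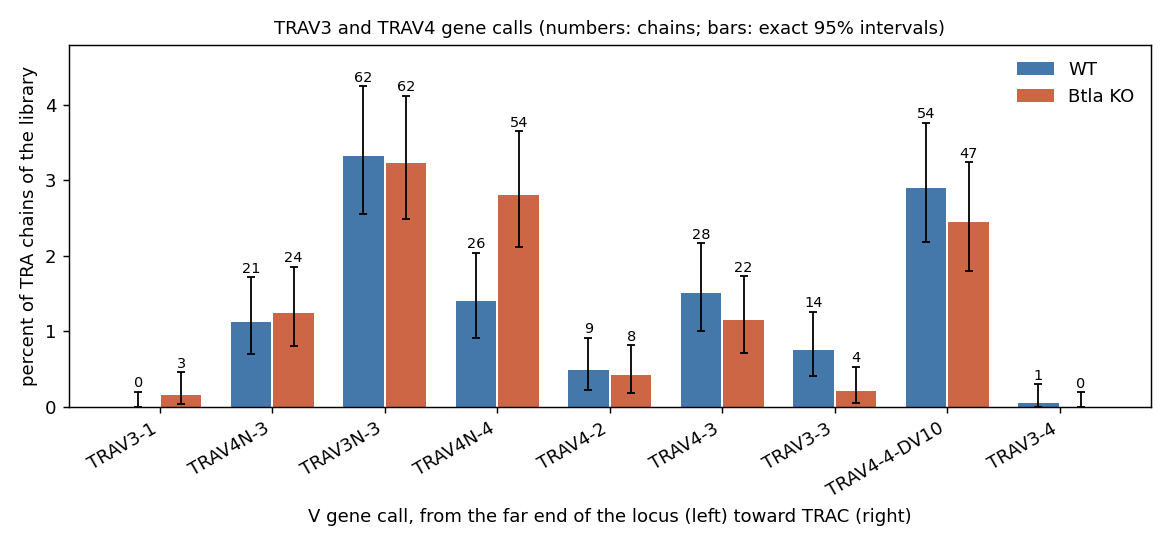
Percent of TRA chains (vertical axis) for each of the 9 V gene calls, ordered from the far end of the locus to the end near TRAC, in the WT and Btla KO libraries. Bars are shares, thin lines are exact 95% intervals and numbers are chains. TRAV3N-3 had 62 chains in each library, whereas TRAV4N-4 had 26 in WT and 54 in Btla KO.

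The TRAJ partner differed more between the copies than between the libraries. TRAJ segments are numbered so that TRAJ1 lies nearest the constant gene TRAC. Of the N-named TRAV3 chains, 52 of 62 in WT (83.9%, 72.3 to 92.0%) and 55 of 62 in Btla KO (88.7%, 78.1 to 95.3%) were joined to TRAJ1 to TRAJ30. Of the other TRAV3 chains this held for 2 of 15 (13.3%, 1.66 to 40.5%) and 2 of 7 (28.6%, 3.67 to 71.0%). The same split was present in TRAV4. The N-named TRAV4 chains used TRAJ1 to TRAJ30 in 37 of 47 WT chains (78.7%, 64.3 to 89.3%) and 64 of 78 Btla KO chains (82.1%, 71.7 to 89.8%), and the other TRAV4 chains in 20 of 91 (22.0%, 13.97 to 31.9%) and 13 of 77 (16.9%, 9.31 to 27.1%). The median segment number was 17 (WT) and 12 (Btla KO) for N-named TRAV4 chains, and 38 and 39 for the others. This division of the copies by name was made after their values were seen.

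**Figure D2:**
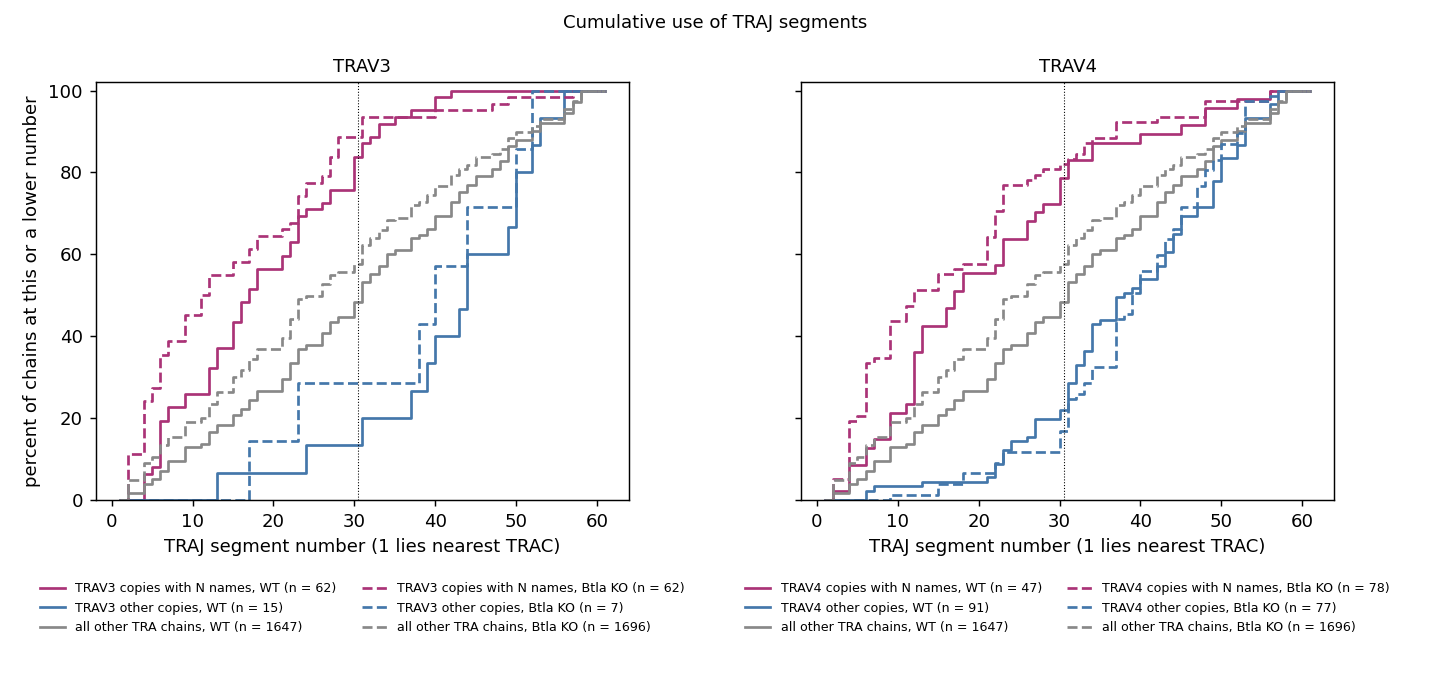
Cumulative percent of chains (vertical axis) joined to a TRAJ segment of the given number or a lower one (horizontal axis), for N-named copies, other copies and all other TRA chains, with WT as solid and Btla KO as dashed lines. At the dotted line, after TRAJ30, the N-named copies had reached 78.7 to 88.7% and the other copies 13.3 to 28.6%.

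Gene by gene, the share was higher in V genes far from TRAC than in those near it, without a strict order within either set. TRAV4N-3, 1009 kb from TRAC, used TRAJ1 to TRAJ30 in 76.2% of WT chains and 91.7% of Btla KO chains. TRAV3N-3 lies at 936 kb, with the values above. TRAV4N-4, at 918 kb, had 80.8% (60.6 to 93.4%) in WT and 77.8% (64.4 to 88.0%) in Btla KO. These distances are those of the N copies, and the identical D copies lie farther out, at 1229 to 1320 kb.

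TRAV4-2, at 802 kb and without an N name, had 6 of 9 and 5 of 8 chains with such a segment. TRAV4-3, at 621 kb, had 21.4% (8.30 to 40.95%) and 22.7% (7.82 to 45.4%). TRAV3-3, at 554 kb, had 2 of 14 and 0 of 4 chains. TRAV4-4-DV10, at 536 kb, had 14.8% (6.62 to 27.1%) and 6.38% (1.34 to 17.5%). TRAV3-1, the farthest gene at 1639 kb, had 2 of 3 chains, and the single chain of TRAV3-4, at 443 kb, had a segment above TRAJ30. The genes at 802 kb or more thus lay above the genes at 621 kb or less in both libraries, whatever their subgroup.

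In the other TRAV genes the share also tended to rise with distance from TRAC. Over those with at least 10 chains, TRAV3 and TRAV4 left out, distance to TRAC and the TRAJ1 to TRAJ30 share had a Spearman rho of 0.66 in WT (58 genes) and 0.76 in Btla KO (64 genes). Among those whose V sequence occurs at 1 place only, rho was 0.84 (41 genes) and 0.91 (47 genes). The genes of a library share its cells and its depth, so these values are a description.

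**Figure D3:**
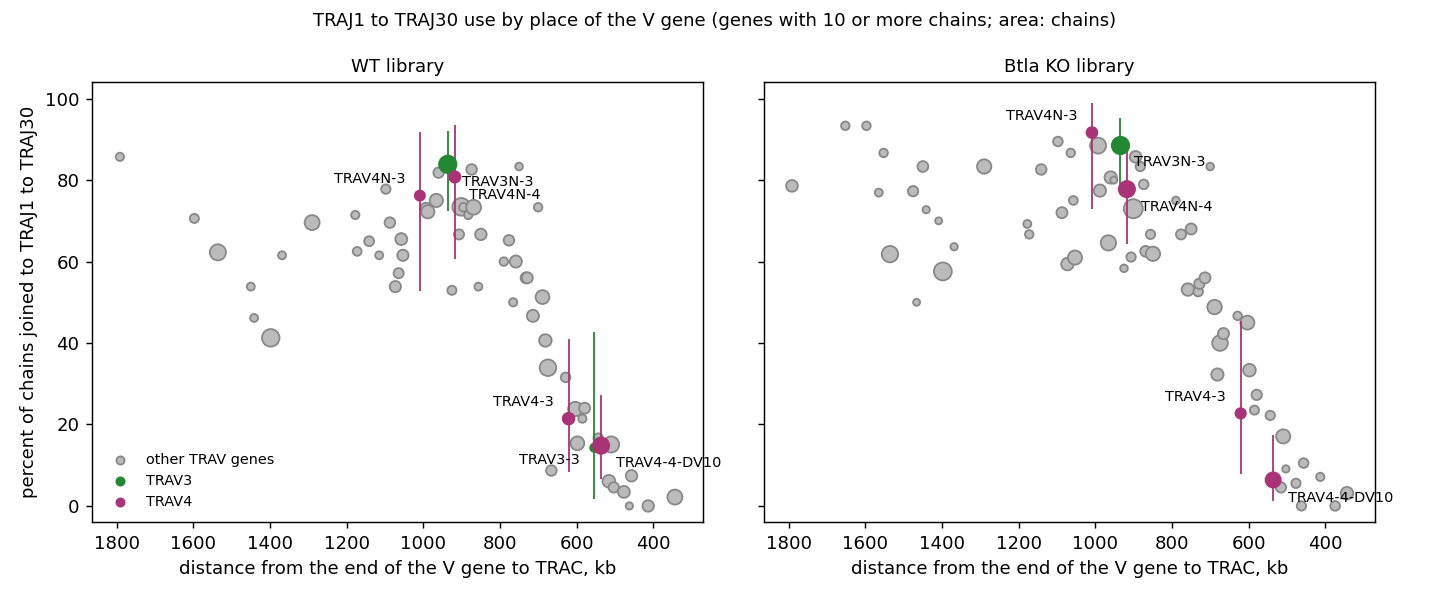
Percent of chains joined to TRAJ1 to TRAJ30 (vertical axis) against the distance in kb from the end of the V gene to TRAC (horizontal axis, TRAC to the right), for genes with at least 10 chains in the WT and Btla KO libraries. Points are genes, their area is the number of chains, and lines on TRAV3 and TRAV4 genes are exact 95% intervals. The N-named copies sit at 76.2 to 91.7% and TRAV4-3, TRAV3-3 and TRAV4-4-DV10 at 6.38 to 22.7%.

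The subgroups as a whole differed as well. TRAJ1 to TRAJ30 made up 70.1% (58.6 to 80.0%) of TRAV3 chains in WT and 82.6% (71.6 to 90.7%) in Btla KO, above the 48.3% and 57.7% of the chains outside both subgroups. In TRAV4 the shares were 41.3% (33.0 to 49.99%) and 49.7% (41.6 to 57.8%). In both subgroups the Btla KO value was the higher. At the WT mixture of N-named and other copies, the Btla KO value of TRAV4 would be 39.1%, beside 41.3% in WT. That of TRAV3 would be 77.0%, beside 70.1% in WT. This TRAV3 value rests on only 7 other copies in Btla KO. The 2 of them with such a segment were TRAV3-1 chains, a gene with 0 WT chains, and TRAV3-3 had 0 of 4. These recomputed values have no interval and use a division of copies made after their values were seen. The part of the copy mixture in the difference between libraries was not tested.

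Genes near TRAC were also the less used in Btla KO outside the subgroups. The cut used here, at TRAV4-3, was not part of the planned comparisons. It lies in the gap between the genes at 802 kb and at 621 kb seen above. Genes from TRAV4-3 toward TRAC gave 59.4% (50.7 to 67.7%) of TRAV4 chains in WT and 44.5% (36.5 to 52.7%) in Btla KO, 19.5% (11.3 to 30.1%) and 5.80% (1.60 to 14.2%) of TRAV3 chains, and 24.2% (22.2 to 26.4%) and 19.1% (17.3 to 21.1%) of all other TRA chains. Within the same stretch, the TRAJ1 to TRAJ30 share of TRAV4 was 17.1% (9.66 to 27.0%) in WT and 11.6% (5.14 to 21.6%) in Btla KO, and that of the other chains was 10.8% (7.91 to 14.2%) and 17.6% (13.6 to 22.2%). For genes farther out the TRAV4 values were 76.8% (63.6 to 87.0%) and 80.2% (70.2 to 88.0%), and those of the other chains 60.3% (57.5 to 63.0%) and 67.2% (64.6 to 69.7%). The part of the genotype in these differences cannot be told apart from that of the library.

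Of the classes of 10 segments, TRAJ1 to TRAJ10 differed most between the libraries in both subgroups. It made up 20.8% (12.4 to 31.5%) of TRAV3 in WT and 40.6% (28.9 to 53.1%) in Btla KO, and 9.42% (5.11 to 15.6%) and 22.6% (16.3 to 29.98%) of TRAV4. For TRAV4 these intervals did not overlap. In the other chains the class was 12.8% (11.2 to 14.5%) and 18.9% (17.1 to 20.9%), and these intervals did not overlap either. The higher share in Btla KO was thus not particular to these subgroups.

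The most used single partners of TRAV3, by the mean of its shares in both libraries, were TRAJ4, TRAJ6, TRAJ23, TRAJ2 and TRAJ12. TRAJ4 was joined to 4 WT chains (5.19%) and 8 Btla KO chains (11.6%). TRAJ6 was joined to 7 (9.09%) and 5 (7.25%). TRAJ23 had 4 and 5 chains and TRAJ12 had 4 and 3. TRAJ2 had 0 WT chains, with an exact interval up to 4.68%, and 7 Btla KO chains (10.1%, 4.18 to 19.8%). These intervals overlapped. In the chains outside TRAV3 the share of TRAJ2 was 1.51% and 4.65%. All of these partners are among TRAJ1 to TRAJ30.

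For TRAV4 the leading partners were TRAJ37, TRAJ31, TRAJ6, TRAJ4 and TRAJ23. TRAJ37 had 5 WT chains (3.62%) and 12 Btla KO chains (7.74%). TRAJ31 had 8 and 7 chains, TRAJ6 had 4 and 10, TRAJ4 had 3 and 11, and TRAJ23 had 6 and 7. No TRAV4 partner reached the 11.6% of TRAJ4 in TRAV3. TRAV3 used 33 TRAJ segments in WT and 27 in Btla KO, and TRAV4 used 40 and 38.

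A TRAJ segment was called where its share in a subgroup was at least 1.5 times higher, or lower, than in the chains outside that subgroup in both libraries. Of 37 segments with at least 20 chains in each library, TRAV3 had 2 higher (TRAJ4 and TRAJ6) and 11 lower. The lower ones were TRAJ26, TRAJ32, TRAJ34, TRAJ42, TRAJ43, TRAJ45, TRAJ48, TRAJ49, TRAJ53, TRAJ56 and TRAJ58, of which all but TRAJ26 are above TRAJ30. TRAV4 had 1 higher (TRAJ53, 6 chains in each library) and 5 lower (TRAJ2, TRAJ5, TRAJ7, TRAJ17 and TRAJ58). In the 10 other TRAV subgroups with at least 50 chains in each library, 5.41% of 370 pairs were higher and 13.2% were lower. Thus the higher counts of both subgroups and the lower count of TRAV4 were near this background, and the lower count of TRAV3 was 29.7% of its segments. This was not particular to TRAV3, since TRAV8 also had 11 of 37 segments lower and TRAV10 had 8. A segment with a few chains can pass such a rule by counting error alone.

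TRAJ58 was joined to 0 TRAV3 chains and 0 TRAV4 chains in both libraries. These zeros allow up to 3.90% and 4.35% of TRAV3 and up to 2.17% and 1.94% of TRAV4, beside 2.52% and 2.32% of the chains outside TRAV3 and 2.61% and 2.44% of those outside TRAV4. For TRAV4 the limits lay just below those shares, and the upper ends of the exact intervals, 2.64% and 2.35%, lay above it in WT and below it in Btla KO. For TRAV3 a lack of TRAJ58 was not detectable at this depth. By the 1.5-fold rule TRAJ58 was also lower in TRAV6, TRAV7, TRAV8 and TRAV10, and it was higher in TRAV14.

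Among the other subgroups with at least 50 chains in each library, likeness was measured as the total variation distance of usage over the classes of 10 segments, where 0 is the same usage and 1 none in common. TRAV8 (0.138) and TRAV10 (0.207) were closest to TRAV3, as means over the 2 libraries. TRAV12 (0.105) and TRAV6 (0.106) were closest to TRAV4. TRAV3 itself lay at 0.309 from TRAV4 and was the most distant of the 11 subgroups compared with it.

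The germline 3′ ends of the V genes, which begin CDR3, set its first residues. They are printed to show which bases the CDR3 starts below come from, and capitals mark the fourth codon.
TRAV3N-3, also TRAV3-1, TRAV3-3 and TRAV3-4: tgcgcagtcAGTg
TRAV4N-4, also TRAV4N-3, TRAV4-3 and TRAV4-4-DV10: tgtgctgctGAGg
TRAV4-2: tgtgctgttGAGg

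Counted from the conserved cysteine, CDR3 of TRAV3 chains opens with CAVS where the germline is kept, and that of TRAV4 chains with CAAE, or with CAVE for TRAV4-2. The first 3 residues were CAV in 72 of 77 WT and 64 of 69 Btla KO TRAV3 chains, and CAA in 122 of 138 and 139 of 155 TRAV4 chains. CAVS opened 54 WT TRAV3 chains (70.1%, 58.6 to 80.0%) and 34 Btla KO chains (49.3%, 37.0 to 61.6%). Within TRAV3N-3 it opened 45 of 62 (72.6%, 59.8 to 83.1%) and 30 of 62 chains (48.4%, 35.5 to 61.4%). Within TRAV3-3 it opened 9 of 14 and 2 of 4 chains. The intervals of the libraries overlapped for TRAV3 as a whole and for TRAV3N-3. CAVR, with arginine in place of serine, opened 7 and 12 TRAV3 chains. The median number of V bases lost from TRAV3 was 0 in WT and 2 in Btla KO, and it was 2 in both libraries for TRAV4 and for the other chains.

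CAAE opened 67 WT TRAV4 chains (48.6%, 39.96 to 57.2%) and 70 Btla KO chains (45.2%, 37.2 to 53.3%), against 0.243% and 0.295% of the chains outside both subgroups. It was the most frequent start of TRAV4-3, TRAV4-4-DV10, TRAV4N-3 and TRAV4N-4 in both libraries. Next came CAAG, with 15 and 18 chains. A glutamate at the fourth position, an acidic residue, was found in 50.7% (42.1 to 59.3%) and 49.0% (40.9 to 57.2%) of TRAV4 chains and in 6.07% and 4.72% of the others. Proline took this position in 5 WT (3.62%, 1.19 to 8.25%) and 14 Btla KO TRAV4 chains (9.03%, 5.03 to 14.7%), with overlapping intervals, beside 2.19% and 2.06% of the others. TRAV4-2 kept CAVE in 3 of 9 WT and 6 of 8 Btla KO chains.

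Counting each chain against the germline start of its own V gene, TRAV4 kept the first 4 residues in 70 of 138 WT chains (50.7%, 42.1 to 59.3%) and 76 of 155 Btla KO chains (49.0%, 40.9 to 57.2%). The chains outside the subgroups kept theirs in 63.9% and 63.0%, a comparison that leaves out TRAV18, whose germline end is shorter than 4 codons. Both TRAV4 intervals lay below these values. By residues, TRAV3 kept its start in 70.1% of WT chains, with an interval that held the value of the others. In Btla KO it was 49.3%, with an interval that ended at 61.6%, below that value. TRAV3 chains kept the first 12 germline bases in 57.1% (45.4 to 68.4%) in WT and 42.0% (30.2 to 54.5%) in Btla KO. For TRAV4 it was 47.8% (39.3 to 56.5%) and 45.2% (37.2 to 53.3%). Counted by bases, the intervals of the libraries overlapped in both subgroups.

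Mean CDR3 length was lower in TRAV4 than in TRAV3 and than in the pooled other chains, in both libraries. The other subgroups were not compared one by one. TRAV3 chains averaged 13.6 ± 1.21 amino acids (SD over 77 chains) in WT and 13.8 ± 1.19 (69 chains) in Btla KO. TRAV4 chains averaged 13.4 ± 1.49 (138 chains) and 13.5 ± 1.34 (155 chains), and the other chains 13.8 ± 1.49 and 13.7 ± 1.52. The lower mean did not hold for each TRAV4 gene. TRAV4N-3 averaged 14.25 in Btla KO (24 chains), above TRAV3 and the other chains. TRAV4-4-DV10 averaged 13.69 in WT (54 chains), above TRAV3 but below the other chains. The remaining TRAV4 means lay below both in each library. Chains of a library are not replicates, so these SDs give the spread of lengths and no error of the means. The most frequent length was 14 for TRAV3 in both libraries and for TRAV4 in WT, and 13 for TRAV4 in Btla KO. TRAV3 lengths ran from 11 to 16 in both libraries, and TRAV4 lengths from 8 to 17 in WT and 11 to 17 in Btla KO.

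**Figure D4:**
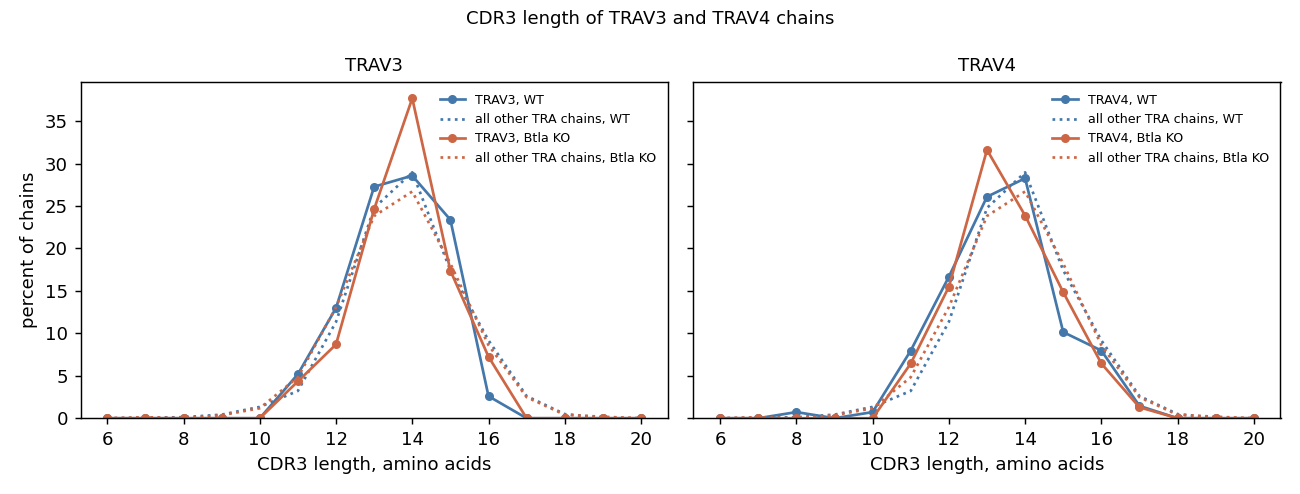
Percent of chains (vertical axis) at each CDR3 length in amino acids (horizontal axis) for TRAV3 and TRAV4 in the WT and Btla KO libraries, with all other TRA chains of the same library as dotted lines. TRAV3 peaks at 14 residues with 28.6% in WT and 37.7% in Btla KO, and TRAV4 in Btla KO peaks at 13 with 31.6%.

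Bases that matched neither the germline V end nor the germline TRAJ start were counted as inserted, which is a lower limit since an added base can match by chance. Their median was 3 in TRAV3, in TRAV4 and in the other chains of both libraries. Joins with 0 inserted bases made up 12.99% (6.41 to 22.6%) and 18.8% (10.4 to 30.1%) of TRAV3 and 16.7% (10.9 to 24.0%) and 9.03% (5.03 to 14.7%) of TRAV4, beside 13.1% and 13.7% of the others. All of these intervals overlapped between the libraries.

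A TRB chain was found in 75 of 77 WT and 67 of 69 Btla KO cells with TRAV3, and in 135 of 137 and 152 of 154 cells with TRAV4. By the mean of the shares in both libraries, the leading TRBV subgroups were TRBV12, TRBV13 and the joint call TRBV12-2+TRBV13-2 for TRAV3, and TRBV13, TRBV12 and the joint call for TRAV4. In TRAV3 cells TRBV5 equalled the joint call, with 6 cells in each library, and in WT alone TRBV3 came second with 9 of 75 cells. TRBV12 was present in 14.7% (7.56 to 24.7%) and 16.4% (8.49 to 27.5%) of TRAV3 cells with a TRB chain, beside 11.4% and 10.3% of cells without either subgroup. TRBV13 was present in 9.33% (3.84 to 18.3%) and 17.9% (9.61 to 29.2%) of TRAV3 cells, and in 17.8% (11.7 to 25.3%) and 13.8% (8.76 to 20.3%) of TRAV4 cells, beside 14.2% and 13.4%. TRBV12 was present in 13.3% (8.10 to 20.3%) and 11.2% (6.65 to 17.3%) of TRAV4 cells. The joint call was present in 8.00% and 8.96% of TRAV3 cells and 8.15% and 9.21% of TRAV4 cells, beside 8.40% and 8.77%. For TRBV12 and TRBV13 every interval held the value of the other cells, so a preference for these partners was not detectable at this depth.

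Some cells carried more than 1 TRA chain. Doublets were not called here, since the tables hold receptor contigs only, and their part in these cells was not tested. Of TRAV3 chains, 11 in WT (14.3%, 7.35 to 24.1%) and 6 in Btla KO (8.70%, 3.26 to 18.0%) shared their cell with another TRA chain, and of TRAV4 chains 23 (16.7%, 10.9 to 24.0%) and 22 (14.2%, 9.11 to 20.7%). For the other chains it was 17.1% and 12.7%. In 2 cells of each library both chains belonged to these subgroups. Of the 30 barcodes found in both libraries, 2 cells held a TRAV3 or TRAV4 chain.

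The median TRAV3 chain had 4 UMIs in WT (quartiles 3 and 5) and 3 in Btla KO (2 and 4). The median TRAV4 chain had 3 UMIs in both. At least 3 UMIs were reached by 77.9% (67.0 to 86.6%) of TRAV3 chains in WT and by 56.5% (44.0 to 68.4%) in Btla KO, and by 69.0% (66.7 to 71.3%) and 53.4% (50.95 to 55.8%) of the chains outside the subgroups. For TRAV4 it was 60.1% (51.5 to 68.4%) in WT and 66.5% (58.4 to 73.8%) in Btla KO. The Btla KO value was here the higher, with overlapping intervals. In the Btla KO library the TRAV4 interval lay above that of the other chains. The higher TRAV4 share among Btla KO contigs with at least 3 UMIs, given above, rests on these shares.

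Few chains were repeated. Among the 424 distinct chains, defined by V gene, TRAJ gene and CDR3 bases, 3 of 212 in WT (1.42%, 0.293 to 4.08%) and 11 of 212 in Btla KO (5.19%, 2.62 to 9.09%) were found in more than 1 cell. For the other chains it was 2.43% and 3.17%. Of the 14 repeated chains, 11 shared the TRB CDR3 between cells as well. In Btla KO, 9 of the repeated chains were TRAV4 and 8 of these shared a TRB CDR3. The 4 repeated TRAV4N-4 chains, each in 2 Btla KO cells with a common TRB CDR3, are shown because TRAV4N-4 was the gene higher in that library, and capitals mark inserted bases.
TRAV4N-4 with TRAJ11: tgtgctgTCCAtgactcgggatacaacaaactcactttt
TRAV4N-4 with TRAJ4: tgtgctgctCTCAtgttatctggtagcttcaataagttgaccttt
TRAV4N-4 with TRAJ48: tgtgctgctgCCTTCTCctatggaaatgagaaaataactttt
TRAV4N-4 with TRAJ56: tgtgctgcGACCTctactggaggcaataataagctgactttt

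With each distinct chain counted once, the ratio of its share in Btla KO to that in WT was 1.89, against 2.01 over all chains. The other repeated Btla KO chains were of TRAV3N-3 (with TRAJ2 and TRAJ4), TRAV4N-3 (with TRAJ4 and, in 3 cells, TRAJ6), TRAV4-4-DV10 (with TRAJ39 and TRAJ47) and TRAV4-2 (with TRAJ18). Those of WT were of TRAV3N-3 (with TRAJ15 and TRAJ22) and TRAV4-4-DV10 (with TRAJ34).

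The libraries shared 3 CDR3 nucleotide sequences of these subgroups and 6 CDR3 amino acid sequences. The shared nucleotide sequences are shown because they had 2, 0 and 0 inserted bases, in capitals, and otherwise matched germline V and TRAJ.
TRAV3N-3 with TRAJ6: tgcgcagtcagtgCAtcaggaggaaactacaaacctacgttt
TRAV4-4-DV10 with TRAJ53: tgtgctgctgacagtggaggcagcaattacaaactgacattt
TRAV4N-3 (WT) and TRAV4N-4 (Btla KO) with TRAJ12: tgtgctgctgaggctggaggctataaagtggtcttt

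None of these shared sequences came from a barcode present in both libraries, and the TRBV partners differed between the cells. They were 1.42% of the 212 distinct CDR3 nucleotide sequences of each library, beside 1.51% and 1.48% for the other chains.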

How the data were processed

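The deposited contig tables hold, per the labels, the output of Cell Ranger 7.2.0 on the GRCm38 reference, with counts of reads and UMIs per contig as the authors deposited them and no normalization. Every contig in them was productive, full length and in a called cell, so each TRA contig was taken as a chain. No doublet caller was run, and cells with exactly 1 TRA and 1 TRB chain served as an alternative. The libraries held 80347 (WT) and 75456 (Btla KO) UMIs in 4040 and 5077 cells. The authors' tables of V usage, CDR3 length and clones were not used. V sequences were the most frequent contig sequence from framework 1 to framework 3 of a call, matched exactly to chromosome 14 of GRCm38.p6 and GENCODE M21, and all 89 TRAV calls matched at their own gene. Inserted bases are those left after the longest match to germline V and TRAJ from each end. Shares have exact 95% intervals from scipy 1.17.1 (Python 3.11.15, pandas 2.3.3, numpy 2.4.6, matplotlib 3.10.9), and a share of 0 allows 3 counts of the total. The matching of V names, the interval of a share and the count of inserted bases were tested on simulated data, and other steps were not. The members and lists were chosen with earlier results of these data known. Named were every V call, the 5 leading TRAJ and 3 leading TRBV partners of each subgroup, TRAJ segments past the 1.5-fold rule, the 2 closest subgroups and repeated or shared CDR3 sequences. Alternatives were a minimum of 3 UMIs, cells with 1 TRA and 1 TRB chain, distinct chains, shared barcodes left out, 1 chain of each kind per cell, other TRAJ boundaries, the median length and the joint TRBV call as TRBV13.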

Additional observations from a re-analysis of the deposited data

How the results depend on the processing

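Of 321 values recomputed for 57 results, 306 were counted as unchanged and 15 moved. Unchanged meant inside the 95% interval of the reported value. For a difference in TRAJ use under another boundary it meant the same sign, and for median length within 1 SD. A turn of direction was looked for only in differences of TRAJ use whose interval left out 0, and there were 0 such turns. The comparison of N-named with other copies was added after seeing the data and kept its direction under all 7 alternatives. With contigs of at least 3 UMIs, TRAV4 was 9.84% of Btla KO chains and its difference between libraries 3.35 points, and the median UMIs became 5 (TRAV4, WT), 4 (TRAV4, Btla KO) and 4 (TRAV3, Btla KO), which follows from the minimum itself. The share joined to TRAJ1 to TRAJ20 was 46.8% and 59.4% of TRAV3 (WT and Btla KO) and 21.7% and 32.3% of TRAV4, and to TRAJ1 to TRAJ40 87.0% and 91.3% of TRAV3 and 65.9% and 74.2% of TRAV4, which follows from the boundary. Counting the joint call as TRBV13 gave 25.9% (WT) and 22.4% (Btla KO) of TRAV4 cells. No paired analysis was possible because each genotype had 1 library. The TRAV3-1, TRAV3-4 and TRAV3-3 chains are too few for shares of their own, and 249 chains with an N name could come from an identical D copy.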
